A study of Mus musculus with 2 samples.

Results

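The Mir302/Mir367 cluster and the Mir290 to Mir295 cluster are the 2 miRNA gene groups best known from mouse embryonic stem cells. Mir302a, Mir302b, Mir302c, Mir302d and Mir367 stood for the first cluster, and Mir291a, Mir293, Mir294 and Mir295 for the second. These 9 genes were chosen by name and found by their Ensembl identifiers among the 1973 miRNA genes counted. The counts came from small RNA libraries of the embryonic facial prominence, the tissue that forms the face, jaws and palate. The embryos were healthy B6NCrl mice of embryonic day 13.5, males and females pooled, with no treatment or genotype contrast in the labels, and total RNA was selected for the size class under 30. There were 2 libraries, named biological replicates 1 and 2 of a single group. They have separate tissue entries under a single donor entry, and the labels do not give the number of embryos behind each. The p-values between them therefore measure only whether these 2 libraries differ beyond counting error.

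Both clusters are transcribed as long primary RNAs that carry several hairpins, each of which is cut into mature miRNAs of about the length sequenced here. The Mir290 to Mir295 cluster is the leading miRNA source of mouse embryonic stem cells and is also known from germ cells. The Mir302/Mir367 cluster is strong in the epiblast and is also known from the early neural folds and the lung endoderm. Many of their products carry the same seed, the stretch near the 5′ end that pairs with target mRNAs, and they are known to relieve brakes on the cell cycle. Both clusters are shut down as cells differentiate, while let-7 miRNAs rise.

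Mature sequences of all 9 genes were found in RefSeq (GRCm38.p6), 17 arms in all, and none of these 17 was identical to an arm of another gene. The arm miR-302a-3p was not used here, so the comparisons of sequence leave it out. Those that bear on the results are shown 5′ to 3′ with the seed, bases 2 to 8, in capitals, because the seed is what the clusters share. The first set holds the arms with the seed AAGUGCU, which occurs in both clusters.
miR-302b-3p: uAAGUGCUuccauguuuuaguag
miR-302d-3p: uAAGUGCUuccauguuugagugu
miR-291a-3p: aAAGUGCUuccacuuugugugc
miR-294-3p: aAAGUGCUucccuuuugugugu
miR-295-3p: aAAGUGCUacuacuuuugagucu
No gene outside the 9 had a mature entry with this seed in the table. The next arms differ from it in the window that counts as the seed. The annotated miR-302c-3p starts 1 base later within the same stretch, and miR-293-3p and miR-367-3p have seeds of their own.
miR-302c-3p: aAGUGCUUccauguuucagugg
miR-293-3p: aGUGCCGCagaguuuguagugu
miR-367-3p: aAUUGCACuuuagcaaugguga
The opposite arms of the Mir302 hairpins carry the seed CUUUAAC in 3 genes and CUUAAAC in Mir302a.
miR-302a-5p: aCUUAAACgugguuguacuugc
miR-302b-5p: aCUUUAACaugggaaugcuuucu
miR-302d-5p: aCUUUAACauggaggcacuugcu

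The Mir302 hairpins sit close together. On the plus strand of chromosome 3 the 5 genes lie within 580 bases, chr3:127545228-127545807 (GRCm38), in the order Mir302b, Mir302c, Mir302a, Mir302d, Mir367, with 43 to 65 bases between neighbours. All 5 lie opposite an intron of Larp7, a gene for an RNA-binding protein of the 7SK particle. The Mir290 to Mir295 cluster is looser, with 7 of its genes in the files over 2216 bases, chr7:3218626-3220841, on the plus strand. Its 4 listed genes overlap exons of Nlrp12, annotated on the minus strand. No read was counted on the opposite strand of any of the 9 genes, 0 counts over both libraries.

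Levels are given as CPM, counts of a gene per 1000000 counts on the strand of miRNA genes, of which replicate 1 had 4562135 and replicate 2 had 5771249. A single read is worth 0.219 CPM in the first library and 0.173 CPM in the second. A count of 0 is given a set limit of 3 counts, or 0.658 and 0.520 CPM. The exact 95% upper limits for a count of 0 are higher, at 0.809 and 0.639 CPM. Intervals are exact 95% limits for counting error only and hold no spread between samples. Copies made by PCR cannot be told from separate molecules, so even the counting error may be understated. Only reads with 1 place in the genome were counted for genes, while reads with several places made up 30.7% of replicate 1 and 31.0% of replicate 2 and have no gene. In bulk tissue, fewer cells with a miRNA and less of it per cell cannot be told apart.

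RNA of the Mir302 cluster was present in the day 13.5 face at modest level. Its 5 genes had 2802 counts in replicate 1, or 614 CPM (592 to 637), and 3196 counts in replicate 2, or 554 CPM (535 to 573). That is 584 ± 42.7 CPM (SD, n = 2), or 0.0614% and 0.0554% of all miRNA gene counts. The sum was 1.11-fold higher in replicate 1 than in replicate 2 (1.05 to 1.17, counting error only).

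Mir302a was the highest gene of the cluster. It had 1000 counts (219 CPM) in replicate 1 and 1268 counts (220 CPM) in replicate 2, and ranked 147th of the 1973 genes, of which 683 had a count. Both values lay within the counting interval of each other. Mir302d followed with 967 counts (212 CPM) in replicate 1 and 1025 counts (178 CPM) in replicate 2, at rank 156. Mir302b had 731 counts (160 CPM) in replicate 1 and 784 counts (136 CPM) in replicate 2, at rank 165. The order was the same in both libraries, but Mir302a and Mir302d differed by less than counting error in replicate 1, with a ratio of 1.03 (0.946 to 1.13), and by more in replicate 2, with 1.24 (1.14 to 1.34). Mir302a exceeded Mir302b in both, by 1.37-fold (1.24 to 1.51) in replicate 1 and 1.62-fold (1.48 to 1.77) in replicate 2.

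Mir302c, the second hairpin of the row, stood about 10-fold below Mir302a although it lies between Mir302b and Mir302a. Its counts came to 104 (22.8 CPM, 18.6 to 27.6) in replicate 1 and to 119 (20.6 CPM, 17.1 to 24.7) in replicate 2. Mir302a exceeded it 9.62-fold (7.85 to 11.9) and 10.7-fold (8.82 to 13.0), and the intervals of the libraries overlap.

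Mir367, the last hairpin of the row, had 0 counts in both libraries. By the limit of 3 counts its level was at most 0.658 CPM in replicate 1 and 0.520 CPM in replicate 2, by uniquely placed reads. Measured against a floor of 3 counts per library, Mir302a was at least 333-fold higher in replicate 1 and at least 423-fold higher in replicate 2. Even Mir302c was at least 34.7-fold and 39.7-fold higher. The longest stretch that miR-367-3p shares with a mature miRNA of another gene is 9 of its 22 bases, and that of miR-367-5p is 10 of 21 bases.

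**Figure D1:**
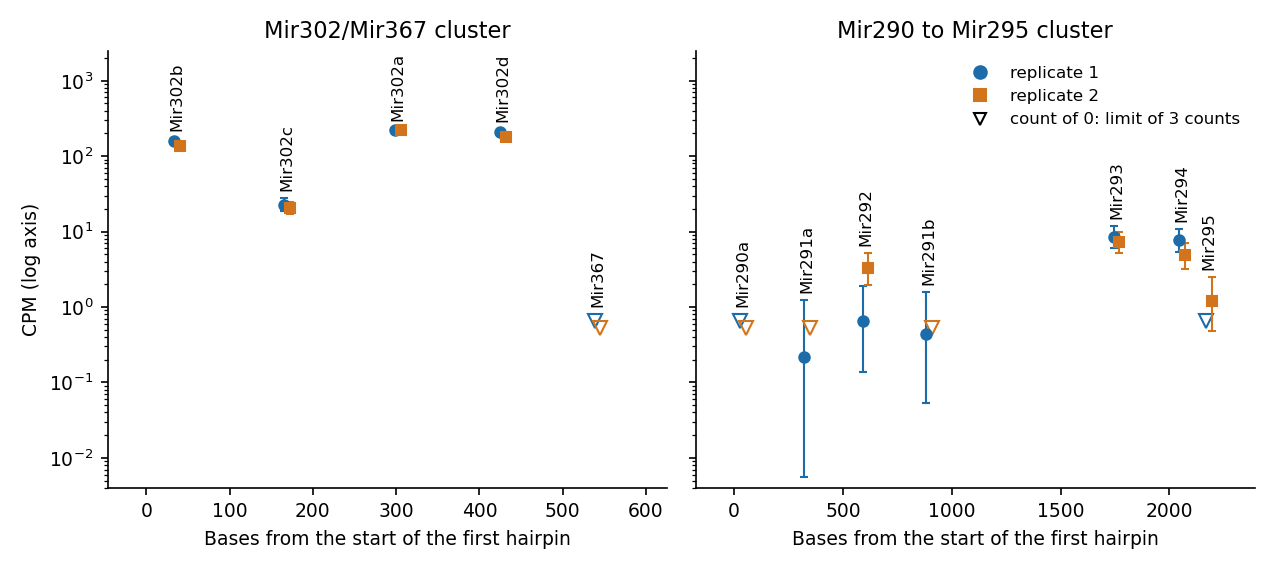
CPM on a log axis against the distance of each hairpin's centre from the start of the first hairpin of its cluster, in bases, for replicate 1 (circles) and replicate 2 (squares). Vertical lines are exact 95% Poisson intervals and open triangles mark counts of 0 at the limit of 3 counts. Mir302a, Mir302b and Mir302d lie at 136 to 220 CPM, Mir302c near 20 CPM and Mir367 at 0, while Mir293, the highest gene of the other cluster, reaches 8.55 CPM.

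The Mir290 to Mir295 cluster was low, with most of its counts on Mir293 and Mir294. Its 4 listed genes had 75 counts in replicate 1, or 16.4 CPM (12.9 to 20.6), and 77 counts in replicate 2, or 13.3 CPM (10.5 to 16.7), with a mean of 14.9 ± 2.19 CPM (SD, n = 2). Mir293 led with 39 counts (8.55 CPM, 6.08 to 11.7) in replicate 1 and 42 counts (7.28 CPM, 5.24 to 9.84) in replicate 2, at rank 309. Mir294, whose 3p arm has the seed of miR-302b-3p and miR-302d-3p, had 35 counts (7.67 CPM, 5.34 to 10.7) in replicate 1 and 28 counts (4.85 CPM, 3.22 to 7.01) in replicate 2. Mir293 and Mir294 did not differ beyond counting error, with ratios of 1.11 (0.688 to 1.81) and 1.5 (0.908 to 2.51).

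Mir295 and Mir291a were at the edge of detection. Mir295 had 0 counts in replicate 1, which allows 0.658 CPM, and 7 counts (1.21 CPM, 0.488 to 2.50) in replicate 2. Mir291a had 1 count in replicate 1 (0.219 CPM) and 0 counts in replicate 2, which allows 0.520 CPM. Each of these genes was thus detected in 1 library only, with few counts. Of miR-291a-5p, 20 of 22 bases run on without a break in miR-291b-5p, so reads of that arm may have several places.

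The other genes of the same row were also low. Mir292 had 3 counts in replicate 1 and 19 counts in replicate 2, which is 0.658 CPM (0.136 to 1.92) and 3.29 CPM (1.98 to 5.14). Mir291b had 2 counts in replicate 1 and 0 in replicate 2, and Mir290a had 0 in both. With these 3 genes the cluster sum came to 80 counts (17.5 CPM) in replicate 1 and 96 counts (16.6 CPM) in replicate 2. These 3 genes were named after their values were seen. Mir293 and Mir294, toward the 3′ end of the row, were the highest genes of the cluster in both libraries.

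Within each library the Mir302/Mir367 cluster exceeded the listed Mir290 to Mir295 genes by a wide margin. The ratio of summed counts was 37.4 (29.7 to 47.6) in replicate 1 and 41.5 (33.1 to 52.7) in replicate 2. On the log2 scale that is 5.30 ± 0.11 (SD, n = 2), or 39.4-fold, and the scaling between libraries cancels in it. Over all 7 genes of the second cluster the ratio was 35.0 (28.0 to 44.3) and 33.3 (27.2 to 41.2). Its highest gene, Mir293, was below the lowest Mir302 gene with a count, Mir302c, by 2.67-fold (1.83 to 3.96) and 2.83-fold (1.98 to 4.13). The clusters thus did not overlap in level except through Mir367 at 0. These ratios are of counts not divided by length, since RNAs under 30 bases cover a mature miRNA and not a hairpin. The hairpins are 66 to 75 bases in the Mir302/Mir367 cluster and 69 to 84 in the other, and per base of hairpin the log2 ratio was 5.53 ± 0.09 (SD, n = 2). With 2 libraries no permutation test could show a difference, and none was run.

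The make-up of the Mir302 cluster was close but not equal in the libraries, and since shares sum to the whole, a shift in 1 gene moves the others. Mir302a made up 35.7% of its counts (33.9 to 37.5) in replicate 1 and 39.7% (38.0 to 41.4) in replicate 2, with intervals that do not overlap. Mir302d made up 34.5% (32.7 to 36.3) and 32.1% (30.5 to 33.7), and Mir302b 26.1% (24.5 to 27.8) and 24.5% (23.0 to 26.1), both with the higher share in replicate 1. Their intervals overlap, but each value of Mir302d lies outside the interval of the other library. Mir302c held 3.71% (3.04 to 4.48) and 3.72% (3.09 to 4.44). Mir367 held 0 of 2802 and 0 of 3196 counts, which by the limit of 3 counts allows up to 0.107% and 0.0939%.

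Among the listed genes of the second cluster the shares were far less precise. Mir293 held 52.0% (40.2 to 63.7) and 54.5% (42.8 to 65.9), and Mir294 46.7% (35.0 to 58.6) and 36.4% (25.7 to 48.1). Mir295 held 0 of 75 counts in replicate 1, which allows up to 4%, and 9.09% (3.73 to 17.8) in replicate 2. Shares of fewer than 100 counts cannot show whether the make-up of these listed genes differed between the libraries by less than about the width of these intervals. Mir292, which is not listed and was named after its values were seen, differed by more than counting error. Of the counts of all 7 genes it held 3.75% (0.780 to 10.6) in replicate 1 and 19.8% (12.4 to 29.2) in replicate 2, with intervals that do not overlap.

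**Figure D2:**
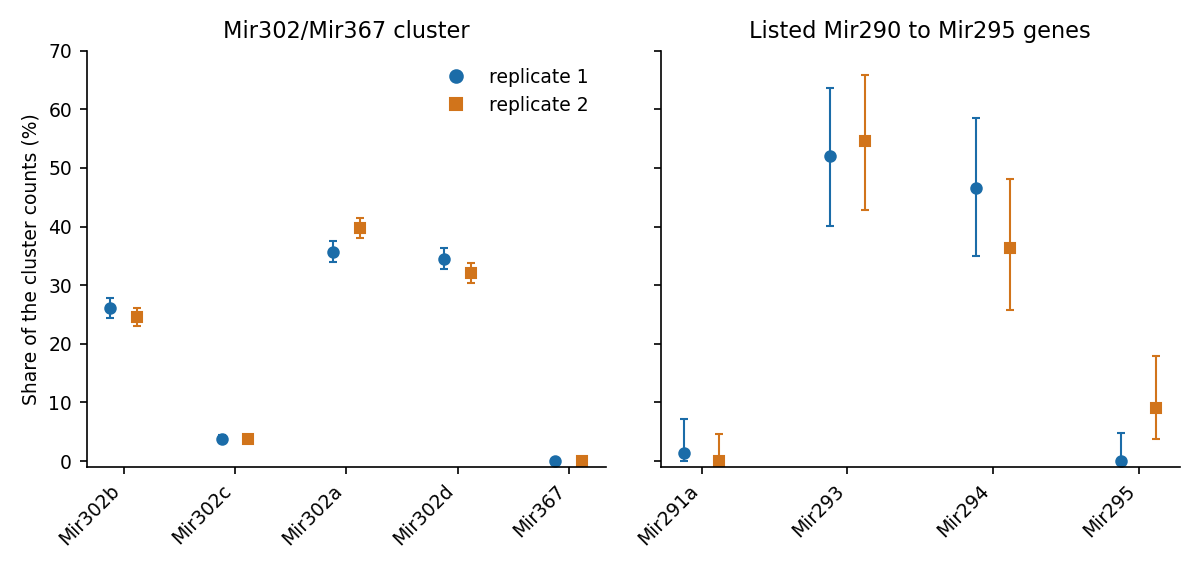
Share of each gene in the counts of its cluster, in percent, for replicate 1 (circles) and replicate 2 (squares), with exact 95% binomial intervals. In the Mir302/Mir367 cluster the values of the libraries differ by at most 4 points (Mir302a, 35.7% and 39.7%), while the intervals of Mir293 and Mir294 are over 20 points wide.

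Shared sequence bears on how firmly these shares can be read. The 3p arms of Mir302b and Mir302d have a run of 17 bases in common, and each shares 16 bases with miR-302c-3p, out of 22 or 23. Reads that end before the bases that tell these arms apart would have several places and stay out of the gene counts. The order of the Mir302 genes is therefore uncertain in part, Mir302a included, since miR-302a-3p was not compared, and the role of such reads in it was not tested. Between the compared arms of the clusters the longest shared run was 11 bases, AAGUGCUUCCA, between miR-291a-3p and the 3p arms of Mir302b, Mir302c and Mir302d. The lengths of the reads are not in the files, so how many had several places for this reason was not tested.

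Between the libraries, each of the 360 genes with at least 10 counts in both was tested by a two-sided exact binomial test against counting error, adjusted by Benjamini-Hochberg over the 360. The test compares these libraries, not conditions. It called 2 of the 6 listed genes that were tested, both higher in replicate 1, against 55.0% of all tested genes (27.2% higher in replicate 1 and 27.8% higher in replicate 2). Mir302d was higher in replicate 1 by 1.19-fold (1.09 to 1.30, adjusted p = 0.000228, exact binomial test). Mir302b was higher in replicate 1 by 1.18-fold (1.07 to 1.31, adjusted p = 0.00305, exact binomial test). Mir302a gave a log2 ratio of replicate 1 to replicate 2 of -0.0027 (ratio 0.918 to 1.09, adjusted p = 0.988, exact binomial test).

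The other tested genes did not pass. Mir302c had a ratio of 1.11 (0.842 to 1.45, adjusted p = 0.549, exact binomial test). Mir293 had a ratio of 1.18 (0.740 to 1.86, adjusted p = 0.588, exact binomial test). Mir294 had a ratio of 1.58 (0.935 to 2.70, adjusted p = 0.123, exact binomial test). Mir293 differed by nearly the same factor as Mir302b and Mir302d, with 81 counts over both libraries against 1515 and 1992. The median size of the difference over the 6 genes was 1.18-fold, and over all 360 tested genes it was also 1.18-fold. Mir367, Mir291a and Mir295 had fewer than 10 counts in at least 1 library and did not enter.

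**Figure D3:**
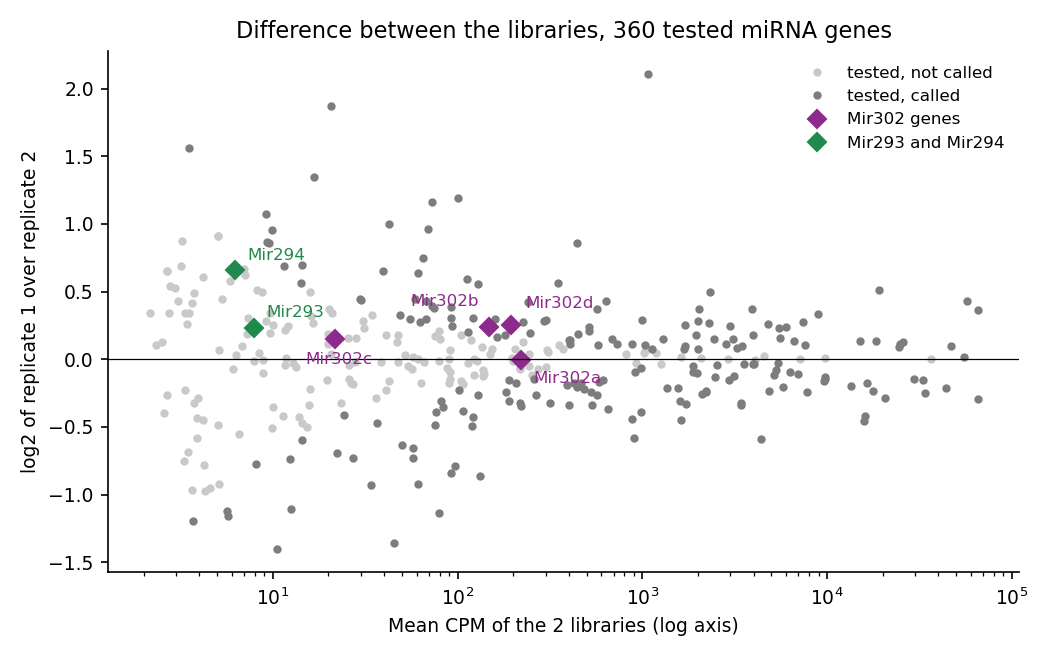
Log2 ratio of replicate 1 over replicate 2 against the mean CPM of both libraries (log axis) for the 360 tested miRNA genes, in light grey where not called and dark grey where called by the exact binomial test. The 4 Mir302 genes (purple) and Mir293 and Mir294 (green) lie inside the cloud, with Mir302a at -0.0027, Mir302d at 0.26 and Mir294 at 0.66.

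Genes related by seed gave a scale for these levels. The Mir17-type genes of the Mir17 to Mir92 cluster and its copies, which drive growth in many embryonic tissues, carry nearly the same seed moved by 1 base, as miR-17-5p shows.
miR-17-5p: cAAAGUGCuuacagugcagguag
All 6 of them were counted, with a sum of 72576 CPM for replicate 1, against 79863 CPM for replicate 2. Mir17 led them at 36397 ± 32.0 CPM, followed by Mir93 at 16133 ± 3273 CPM and Mir20a at 13445 ± 1314 CPM (SD, n = 2). The Mir302 genes stood far below these leaders, while the lowest of the group, Mir20b, was in their range at 181 ± 15.6 CPM (named after its value was seen). In the test between the libraries 2 of the 6 were higher in replicate 1, 3 were higher in replicate 2, and Mir17 did not pass. Of all tested genes 27.2% were called higher in replicate 1 and 27.8% higher in replicate 2.

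Other genes that encode the seed of miR-367-3p were counted, although Mir367 had no count. Counts are per gene and do not separate the arms of a hairpin, so the level of the seed itself was not measured. The seed is encoded by 6 other genes, known from the Mir17 to Mir92 cluster, its copies and single loci. Both miR-92a-3p and miR-25-3p show it.
miR-92a-3p: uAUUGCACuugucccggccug
miR-25-3p: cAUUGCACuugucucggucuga
Together these 6 genes had 5041 CPM in replicate 1 and 5030 CPM in replicate 2. Mir92-1, the gene of miR-92a-3p in the Mir17 to Mir92 cluster, had 3561 and 3330 CPM, Mir25 had 567 and 730 CPM, and Mir92b had 410 and 473 CPM. The same mature sequence is also encoded by Mir92-2, so reads of that arm can have several places, and how far this lowers the counts of either gene was not tested. All 6 passed the test between the libraries, 3 higher in replicate 1 and 3 higher in replicate 2, against 55.0% of all tested genes. At high counts this test also calls small differences, such as the log2 ratio of 0.097 for Mir92-1.

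**Figure D4:**
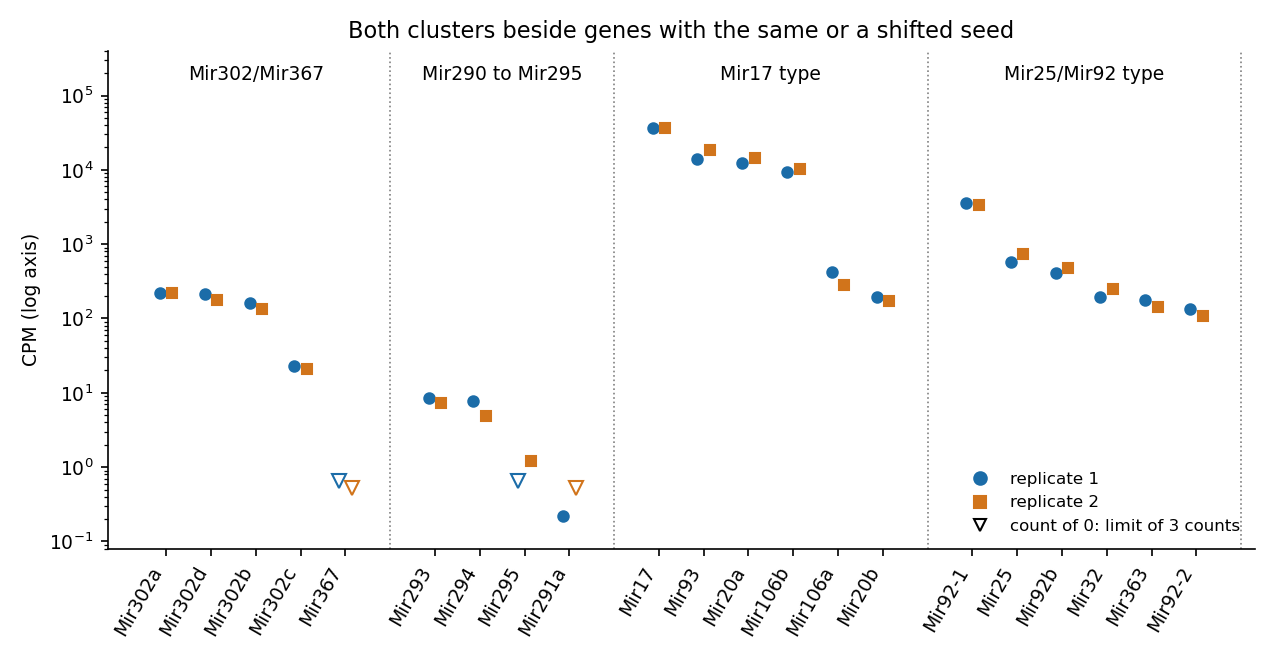
CPM on a log axis of the 9 genes and of genes with the shifted seed (Mir17 type) or the seed of miR-367-3p (Mir25/Mir92 type), for replicate 1 (circles) and replicate 2 (squares). Open triangles mark counts of 0 at the limit of 3 counts. Mir302a at 219 and 220 CPM lies within the range of the Mir25/Mir92 type, while every listed gene of the Mir290 to Mir295 cluster lies below 9 CPM.

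The 3 tested genes with levels nearest to those of Mir302a over the 2 libraries were Mir500, Mir187 and Mir700. Mir500 had 213 and 223 CPM in replicates 1 and 2, at a distance of 0.0466 on the log2 scale. Mir187 had 211 and 222 CPM, at a distance of 0.0573, and Mir700 had 238 and 217 CPM, at 0.118. Nearest to Mir293 were Mir196a-2 (8.11 and 6.58 CPM), Mir135a-1 (7.89 and 7.97 CPM) and Mir193a (7.67 and 6.76 CPM), at distances of 0.161, 0.173 and 0.187. With 2 libraries of 1 group such nearness describes levels only.

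The libraries held miRNAs listed as markers of mesenchyme and cartilage, epithelium and endothelium. With no other tissue in the series, these levels do not show what is particular to the face. All 5 genes of the mesenchyme and cartilage list and all 7 of the epithelium list were detected, with sums of 47538 and 49165 CPM for the first list and 63539 and 63309 CPM for the second in replicates 1 and 2. Mir126a, the endothelial marker, had 25810 and 23871 CPM. Summed over their genes, lists for cells outside these tissues were lower, though single genes of the mesenchyme and cartilage list overlapped with them in level. The neural list had 10 of its 11 genes among those counted, 3 of them at 0. Its sum was 746 CPM in replicate 1 and 683 CPM in replicate 2. The striated muscle list had 6 of its 7 genes among those counted, 3 of them at 0. Its sum was 622 and 385 CPM. The zeros (Mir9-2, Mir124a-1, Mir124a-3, Mir1a-1, Mir133a-1 and Mir133a-2) are genes whose mature sequence has several loci. Whether this bears on their counts or on the lower sums of these lists was not tested. The erythroid list, with none of its 3 genes at 0, summed to 101 and 160 CPM, and Mir122, the liver marker, had 49.5 and 109 CPM. The part of these cell types in the levels and differences of the Mir302 and Mir290 genes was not tested.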

How the data were processed

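The files give small RNA read counts of 2 libraries per annotated miRNA gene, deposited by the authors as raw counts without regard to strand, on the strand of the gene and on the opposite strand. Per the deposited description files the build was mm10 and the annotation GENCODE M4. For the aligner, the trimming and the counter, nothing is stated in the labels or files used here. The files have no header, and the strand reading rests on their layout. Here the same-strand column was used, without the read classes that belong to no gene. Names and positions came from GENCODE M21 (GRCm38), in which 1894 of 1973 identifiers matched, and listed names were also matched through RefSeq synonyms.

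Levels are CPM of the same-strand gene total. For the test, libraries were scaled by TMM over the 360 tested genes in edgeR 4.0.16 (R 4.3.3), and the exact binomial test was run in SciPy 1.17.1 and tested on simulated data; genes with an adjusted p under 0.05 were called. A pseudocount of 0.5 reads enters log2 values of single genes, not the ratios of clusters. Counts carry exact Poisson intervals, and shares and ratios exact binomial (Clopper-Pearson) intervals. Levels were recomputed with other settings, which were size factors of DESeq2 1.42.0, the unstranded column, plain totals, TMM-scaled CPM, a pseudocount of 5, a total without its highest gene, other count minimums, other cluster membership and single libraries. The genes named besides the members were up to 3 of the highest of each list, called genes of the rest of the Mir290 row and the 3 nearest in level; exceptions are marked. The members and lists were chosen with earlier results of these data known.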

Additional observations from a re-analysis of the deposited data

How the results depend on the processing

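The count of called genes moved by less than 1.5 times under every alternative run for it. The 2 calls among the listed genes kept their side of the threshold in all of them. The level of each cluster moved by less than the spread between libraries under every alternative that kept both libraries. The log2 ratio of the clusters moved by more than that spread in 2 settings, to 5.09 without Mir367 and over all 7 genes of the second cluster, and to 5.53 with counts per base of hairpin, a setting chosen after the data were seen. With 1 library left out it ranged from 5.22 to 5.38, and the cluster levels from 554 to 614 CPM and from 13.3 to 16.4 CPM. A mean of 2 libraries cannot move by more than their SD when 1 is left out, so these ranges are a description only. The count of called genes ranged from 180 to 209. Of the values for single genes, 5 moved by more than the spread, all of them levels of Mir302a, Mir367 or Mir291a, and no call among the 9 genes changed. A minimum of 100 counts left Mir293 and Mir294 untested. Without a count minimum, over 683 genes, Mir292 passed (adjusted p = 0.0161, exact binomial test, higher in replicate 2) and Mir295 did not (adjusted p = 0.0614). No paired analysis was possible because there is 1 group. DESeq2 gave size factors only, since 1 group has no contrast for its test. Mir367, Mir291a and Mir295 had at most 7 counts in a library, and whether reads with several places bear on this was not tested.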
